A study of Mus musculus with 50 samples.

Results

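Prolactin signalling runs from the prolactin receptor through the kinase JAK2 to the transcription factors STAT5A and STAT5B. Phosphorylated STAT5 enters the nucleus and, in the alveolar cells of the lactating gland, binds the promoters of milk protein genes. ELF5 is an ETS-family transcription factor of luminal progenitor and alveolar cells, and the SH2 proteins CIS, the product of Cish, and SOCS2 are STAT5-induced inhibitors of the same receptors. The 7 genes Prlr, Jak2, Stat5a, Stat5b, Elf5, Cish and Socs2 were taken as a fixed list, and each was read from the probe set with the highest mean among those annotated to that gene alone. Of the 7 genes, 6 had such a probe set, out of 22180 genes in the whole series, and all 6 passed the filter on low values. Prlr was not analysed here, because the probe annotation pairs no probe set with Prlr alone.

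RNA came from biopsies of 50 mammary tumours that arose in female mice, 1 tumour per array, taken before drug treatment. The mice carried MMTV-Erbb2, a transgene in which the mouse mammary tumour virus promoter drives the ErbB2 receptor in mammary epithelium. They were the offspring of hybrids between C57BL/6J and FVB/NJ that were crossed back to transgenic FVB/NJ mice, so their genomes differed. All tumours form 1 group with the same transgene and no untreated or normal gland beside it, so the values below describe differences between tumours and no comparison with a healthy gland. The labels name the drug that followed inconsistently, and no response to it was analysed here.

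Values are log2 levels after RMA, given per gene and not compared between genes, since probe sets differ in how strongly they bind. Of the 50 arrays, 3 stood apart, with a mean correlation to the others of 0.916 in mid79, 0.931 in mid60 and 0.954 in mid100, against a median of 0.978. The mean level of 8 adipocyte markers was 10.98 in mid79 against a median of 5.33 over tumours, and the mean of 10 luminal markers was 6.39 there against a median of 8.60. In mid60 the 8 measured skin markers averaged 8.70 against a median of 4.69, and the 7 measured basal markers 7.86 against 5.83. In mid100 the 8 measured muscle markers averaged 10.69 against a median of 4.92, and the 11 fibroblast markers 10.81 against 7.80. Most results are therefore given over all 50 tumours and over the 47 without these 3.

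Jak2, the kinase bound to the prolactin receptor, lay at 8.08 in mid127, at a median of 8.54 and at 9.38 in mid60 (mean 8.55 ± 0.26, SD, n = 50). Its level was highest in mid60. Between the 5th and 95th percentile of tumours the level of Jak2 differed 1.81-fold.

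Stat5a, the STAT5 form that the mouse mammary gland needs for alveolar development, lay at 6.97 in mid105, at a median of 7.77 and at 8.60 in mid37 (7.81 ± 0.37, SD, n = 50). Stat5b, its close paralog, lay at 7.75 in mid60, at a median of 8.51 and at 9.10 in mid16 (8.48 ± 0.29, SD, n = 50). No tumour stood far from the rest for either gene, and the 3 arrays that stood apart had Stat5a levels of 7.79 in mid60, 7.35 in mid79 and 7.57 in mid100, inside the range of the others. The 5th to 95th percentile difference was 2.23-fold for Stat5a and 1.87-fold for Stat5b.

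Elf5 lay at 6.33 in mid79, at a median of 9.36 and at 10 in mid130 (9.30 ± 0.55, SD, n = 50). The next lowest level was 8.48 in mid111, so that mid79 alone lay far below the others. Cish lay at 6.53 in mid79 and 6.90 in mid100, at a median of 7.89 and at 8.55 in mid26 (7.85 ± 0.40, SD, n = 50).

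Socs2 lay at 7.0 in mid60 and 7.62 in mid79, at a median of 11.15 and at 11.66 in mid142 (10.93 ± 0.82, SD, n = 50). No other tumour had a Socs2 level below 10.25, which was that of mid102. The second probe set of Socs2 followed the first with r = 0.939 and was lowest in mid79 at 6.15. The second probe set of Cish followed the first less closely, with r = 0.616, and was lowest in mid33 at 5.42 and not in mid79.

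The spread of the 6 genes was ordinary for Jak2 and wide for Socs2. Against the SDs of all tested genes, Jak2 lay at the 59.4th percentile, Stat5b at the 67.4th, Stat5a at the 78.9th, Cish at the 81.9th, Elf5 at the 90.6th and Socs2 at the 97.0th. Without mid60, mid79 and mid100 the SD of Socs2 was 0.33, that of Elf5 0.34 and that of Cish 0.33, close to the 0.38 of Stat5a, and Stat5a then had the highest percentile of the 6, the 85.6th. In bulk tissue, fewer cells of a type and less RNA per cell cannot be told apart.

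**Figure D1:**
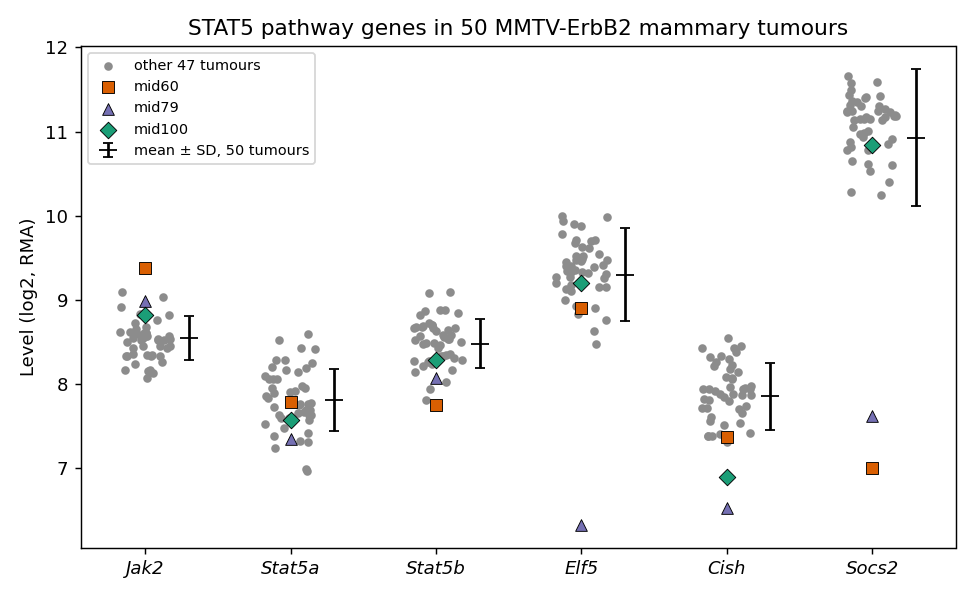
Levels of the 6 measured genes of the pathway (y axis, log2 after RMA) in each of 50 tumours, with mid60, mid79 and mid100 marked and the mean ± SD over 50 tumours beside each gene. Socs2 is at 7.0 in mid60 and 7.62 in mid79 with no other tumour below 10.25, and Elf5 is at 6.33 in mid79 with no other tumour below 8.48.

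To ask which genes vary with each member, every tested gene was regressed on the member's standardised level with limma, and a gene was called at a Benjamini-Hochberg adjusted p under 0.05 over all genes. This gives the background against which the named genes are read. With Stat5a, 3.59% of all 18044 other genes were called higher and 2.04% lower over 50 tumours, and 3.78% and 2.64% over 47. With Stat5b the shares were 8.2% higher and 6.83% lower over 50 tumours, and 2.43% and 1.91% over 47. With Jak2 they were 11.4% and 9.45%, and 2.98% and 1.05% over 47. With Elf5 they were 10.3% and 9.97%, and 1.59% and 1.58% over 47. With Cish they were 10.7% and 9.74%, and 0.36% and 0.105% over 47. With Socs2 they were 13.6% and 14.2%, and 1.87% and 2.05% over 47. The shares for 5 of the 6 genes were smaller without the 3 arrays, and those for Stat5a were not.

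Stat5a and Stat5b rose and fell together across tumours more closely than any other pair of the 6. Their levels gave r = 0.764 and rho = 0.757 over 50 tumours (each permutation p = 1e-05, the smallest the permutations can give), r = 0.737 without mid37 and mid105, and r = 0.807 over 47 tumours. By limma Stat5b was 0.22 ± 0.03 log2 (SE) higher per SD of Stat5a, with an adjusted p of 1.97e-06 over 50 tumours and 1.68e-07 over 47. Of 18044 genes ranked by rho, Stat5b came first for Stat5a, and Stat5a second for Stat5b.

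The pair lies side by side on chromosome 11, in a cluster with Stat3, a STAT of other cytokine receptors. The other 19 tested genes nearest to Stat5a had a median r of 0.034 with it, beside 0.0122 over all genes, and Stat3 gave r = 0.123. Their r with Stat5a ran from -0.263 for Tubg1 to 0.499 for Retreg3. The 19 nearest to Stat5b had a median r of 0.115 with it, beside 0.0293, and ran from -0.460 for Rab5c to 0.608 for Coasy. The 2 paralogs are nearly identical in sequence over much of their length, and how far their probes bind both transcripts was not tested.

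Socs2 was lower where Jak2 was higher. The pair gave r = -0.656 and rho = -0.621 (each permutation p = 1e-05), r = -0.525 without mid60 and mid71, and r = -0.522 over 47 tumours, with adjusted p = 4.18e-05 and 0.0144 over 47. Only 4 of 18044 genes had a lower rho with Jak2 than Socs2 had. Over the 50 tumours with the scores of fibroblast, endothelial, adipocyte and T and NK cell markers as covariates, the pair gave r = -0.573 (adjusted p = 0.048). These covariates did not include the basal or macrophage score, and a fit with them was not run. The basal score gave r = 0.688 with Jak2 and -0.646 with Socs2 over 50 tumours, and 0.510 and -0.118 over 47. The macrophage score gave 0.551 and -0.350 over 50 tumours, and 0.451 and -0.134 over 47.

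Elf5 and Socs2 rose together, with r = 0.672 (permutation p = 0.00065) and rho = 0.553 (p = 8e-05) over 50 tumours. Leaving out mid79 and mid111 gave r = 0.439, and the 47 tumours gave r = 0.526 (adjusted p = 2.42e-06 over 50 and 0.011 over 47). Without mid79 alone the pair gave r = 0.424 and was not called (adjusted p = 0.059).

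Cish rose with Stat5b, with r = 0.570 (permutation p = 2e-05) and rho = 0.534 (p = 0.0001), r = 0.533 without mid60 and mid54 and r = 0.522 over 47 tumours. The adjusted p was 0.000747 over 50 tumours and 0.00978 over 47. Cish also rose with Stat5a over 50 tumours (r = 0.414, adjusted p = 0.0445), but r was 0.380 and the adjusted p 0.0821 over 47.

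Of the 15 pairs, 10 were called over 50 tumours and 4 over 47, and those 4 are the ones described first above. The pairs Elf5 with Cish (r = 0.526 over 50 tumours, 0.243 over 47) and Cish with Socs2 (0.442 and 0.0646) lost their call. So did Stat5b with Socs2 (0.440 and 0.165), Jak2 with Stat5b (-0.409 and -0.226) and Jak2 with Elf5 (-0.405 and -0.292). The pairs of Stat5a with Elf5 (r = 0.345, adjusted p = 0.117) and with Socs2 (0.215, adjusted p = 0.391) were not called in either set, nor were Stat5b with Elf5 (0.303), Jak2 with Stat5a (-0.311) and Jak2 with Cish (-0.341).

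**Figure D2:**
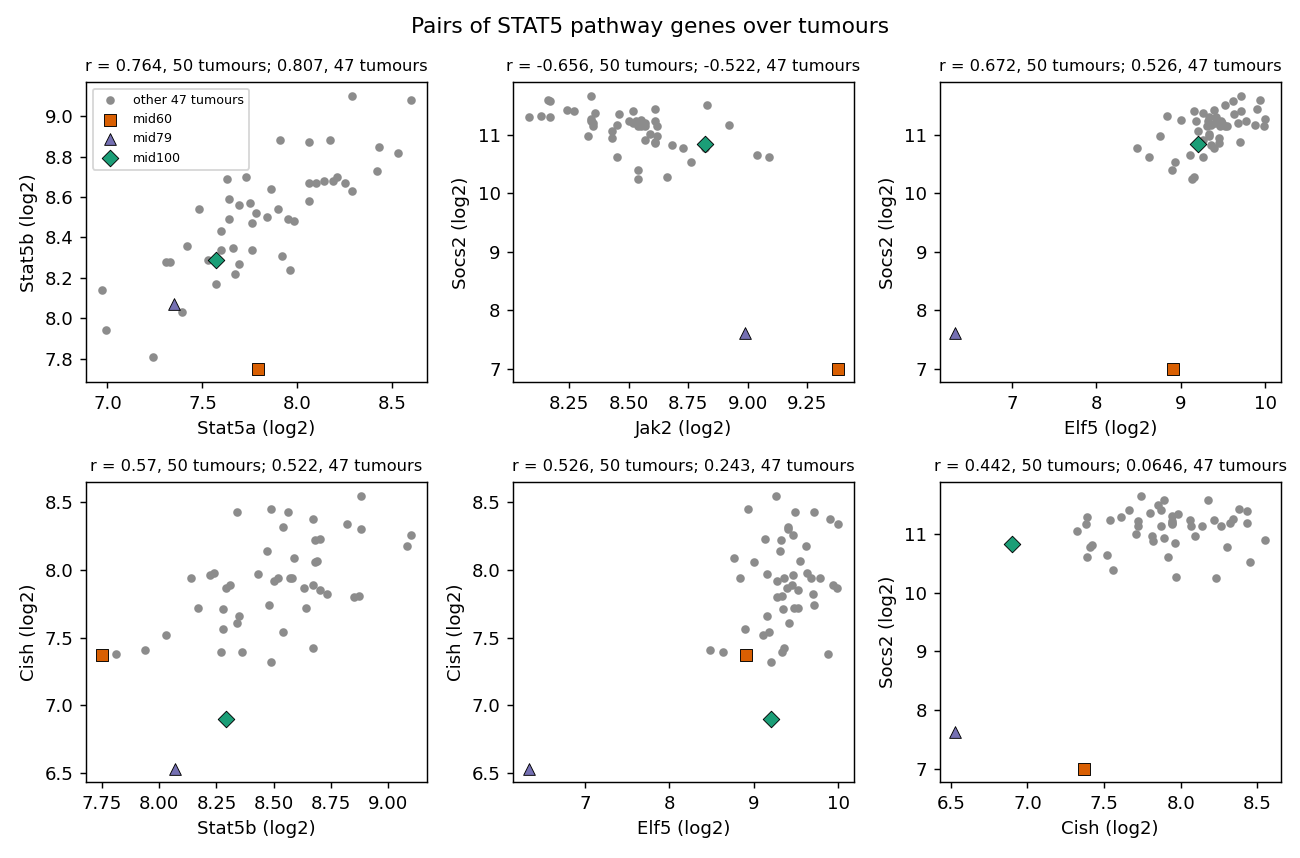
Each panel plots the log2 levels of 2 genes in 50 tumours, with mid60, mid79 and mid100 marked and r over 50 and over 47 tumours above the panel. Stat5a and Stat5b keep r = 0.807 without the 3 tumours, while r is 0.0646 for Cish and Socs2.

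The second question was how the members relate to milk genes, of which 30 were listed and 29 tested: 12 milk proteins, 11 genes of milk fat and 6 transporters. Here a milk gene is any gene of that list, which counts the water channel Aqp5 among the transporters. Whether each listed gene serves milk secretion was not tested. Csn2, which encodes beta-casein, lay at 4.82 in mid99, at a median of 12.5 and at 13.48 in mid186. Lalba, alpha-lactalbumin of the lactose synthase, lay at 8.71 in mid60, at a median of 12.62 and at 13.21 in mid130. Wap, the whey acidic protein, lay at 4.79 in mid145, at a median of 5.32 and at 6.59 in mid2. The spread over tumours was wide for Lao1 (6.84 ± 1.87, SD, n = 50) and Btn1a1 (8.72 ± 1.68, SD, n = 50).

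STAT5 dimers bind the motif TTCNNNGAA, which reads the same on both strands. The 250 bases before the RefSeq start (assembly GRCm38.p6) held it in 3 of 20 milk genes with a promoter entry (15%), against 8.13% of 27025 genes with an entry. Of the 6 listed pathway genes with an entry, 1 held it, at the second of 3 starts of Prlr. The promoters of 2 caseins are shown with the motif in capitals, since STAT5 was first described as a factor that binds the beta-casein promoter and both genes are compared with Stat5a below. A match is a description of the letters and not evidence of binding in these tumours. The Csn2 window is chr5:87699426-87699675, minus strand, with the motif starting 93 bases before the start site, and the Csn1s1 window is chr5:87665958-87666207, plus strand, with the motif starting 100 bases before it.
Csn2: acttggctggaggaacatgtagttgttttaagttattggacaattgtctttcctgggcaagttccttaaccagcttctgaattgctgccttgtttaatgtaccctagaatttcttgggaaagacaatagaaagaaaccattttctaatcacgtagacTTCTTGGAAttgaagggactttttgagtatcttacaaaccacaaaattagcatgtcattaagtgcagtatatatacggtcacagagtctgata
Csn1s1: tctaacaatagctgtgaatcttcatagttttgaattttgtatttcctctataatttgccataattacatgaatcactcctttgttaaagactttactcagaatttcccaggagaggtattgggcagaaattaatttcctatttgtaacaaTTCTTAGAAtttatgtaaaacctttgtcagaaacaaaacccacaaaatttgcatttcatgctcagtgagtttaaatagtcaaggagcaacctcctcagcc
Glycam1 also held the motif, 145 bases before its start. The other 17 milk genes with an entry held no match in this window.

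Of the milk genes, 37.9% were called higher with Stat5a over 50 tumours, against 3.59% of all genes. By count, 11 of 29 were called higher and 0 lower over 50 tumours (18 and 0 at an unadjusted p under 0.05 by limma), and 2.04% of all genes were lower. Over 47 tumours 13 were higher and 0 lower, against 3.78% and 2.64%. Their median r with Stat5a was 0.321 over 50 tumours and 0.335 over 47, against 0.0122 and 0.00371 for all genes. Milk genes can vary together, so these counts are not of separate relations, and the difference between the shares was not tested. The list was also chosen with earlier results of these data known. Neither the level of Erbb2 nor any of 8 marker scores had a called relation to Stat5a in either set. Unadjusted, the fibroblast score gave r = -0.300 (permutation p = 0.035) and rho = -0.340 (p = 0.0164) with Stat5a over 50 tumours. The basal score gave rho = -0.327 (permutation p = 0.0213). Of 11 fibroblast markers, 0 were called with Stat5a over 50 tumours, and 6 were lower at an unadjusted p under 0.05 by limma.

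The genes that rose with Stat5a came from all 3 groups. Of the milk proteins, Lao1, an amino acid oxidase of milk, gave r = 0.557 (permutation p = 1e-05) and rho = 0.533 (p = 0.0001), r = 0.520 without mid37 and mid105, and was 1.04 ± 0.22 log2 (SE) higher per SD of Stat5a (adjusted p = 0.00323, and 0.00368 over 47 tumours). Wfdc18, a small secreted whey acidic protein domain protein, gave r = 0.510, Csn1s2b, a minor casein, 0.492, Lalba 0.488 and Wap 0.448 (adjusted p between 0.00805 and 0.0257). All 5 kept their call over 47 tumours.

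Of the milk fat genes, Plin2, which coats lipid droplets, gave r = 0.513 with Stat5a, Btn1a1, butyrophilin of the milk fat globule, 0.486, and Xdh, the xanthine dehydrogenase that partners it, 0.457. Each was called over 50 and 47 tumours, and Thrsp, a regulator of lipogenesis, was called over 47 only (r = 0.489, adjusted p = 0.0124). Of the transporters, Slc34a2, a phosphate carrier, gave r = 0.547 (slope 0.59 ± 0.13 log2 per SD, adjusted p = 0.00392), Slc28a3, a nucleoside carrier, 0.539 and Folr1, a folate receptor, 0.486. Aqp5, a water channel, was called over 47 tumours only (r = 0.490, adjusted p = 0.0130).

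For 2 of the other 4 caseins, Csn1s1 and Csn1s2a, leaving out 1 tumour, mid99, changed the call with Stat5a. Over 50 tumours Csn1s1 gave r = 0.296 with Stat5a (permutation p = 0.0367, adjusted p = 0.2) but rho = 0.497 (p = 0.00031). Csn1s2a gave r = 0.335 and rho = 0.473, Csn2 r = 0.190 and rho = 0.413, and Csn3, kappa-casein, r = 0.191 and rho = 0.335, and none of the 4 was called. Tumour mid99 had the lowest level of Csn1s1, Csn1s2a and Csn2, at 4.52, 4.90 and 4.82, and a Stat5a level of 8.10, above the median.

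The run without mid99 was chosen after seeing the data, so its calls describe that choice and are not a test. Without mid99, Csn1s1 gave r = 0.457 with Stat5a (adjusted p = 0.0237) and Csn1s2a 0.485 (adjusted p = 0.0144), both called. In the same run Csn2 gave 0.366 (adjusted p = 0.0952) and Csn3 0.224. With all values replaced by ranks, Csn1s1, Csn1s2a and Csn2 were called (adjusted p = 0.0313, 0.0312 and 0.0478) and Csn3 was not (0.226). In mid99 the other members lay at 8.67 for Stat5b, 9.36 for Elf5, 7.42 for Cish and 10.82 for Socs2, all within the range of the other tumours.

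**Figure D3:**
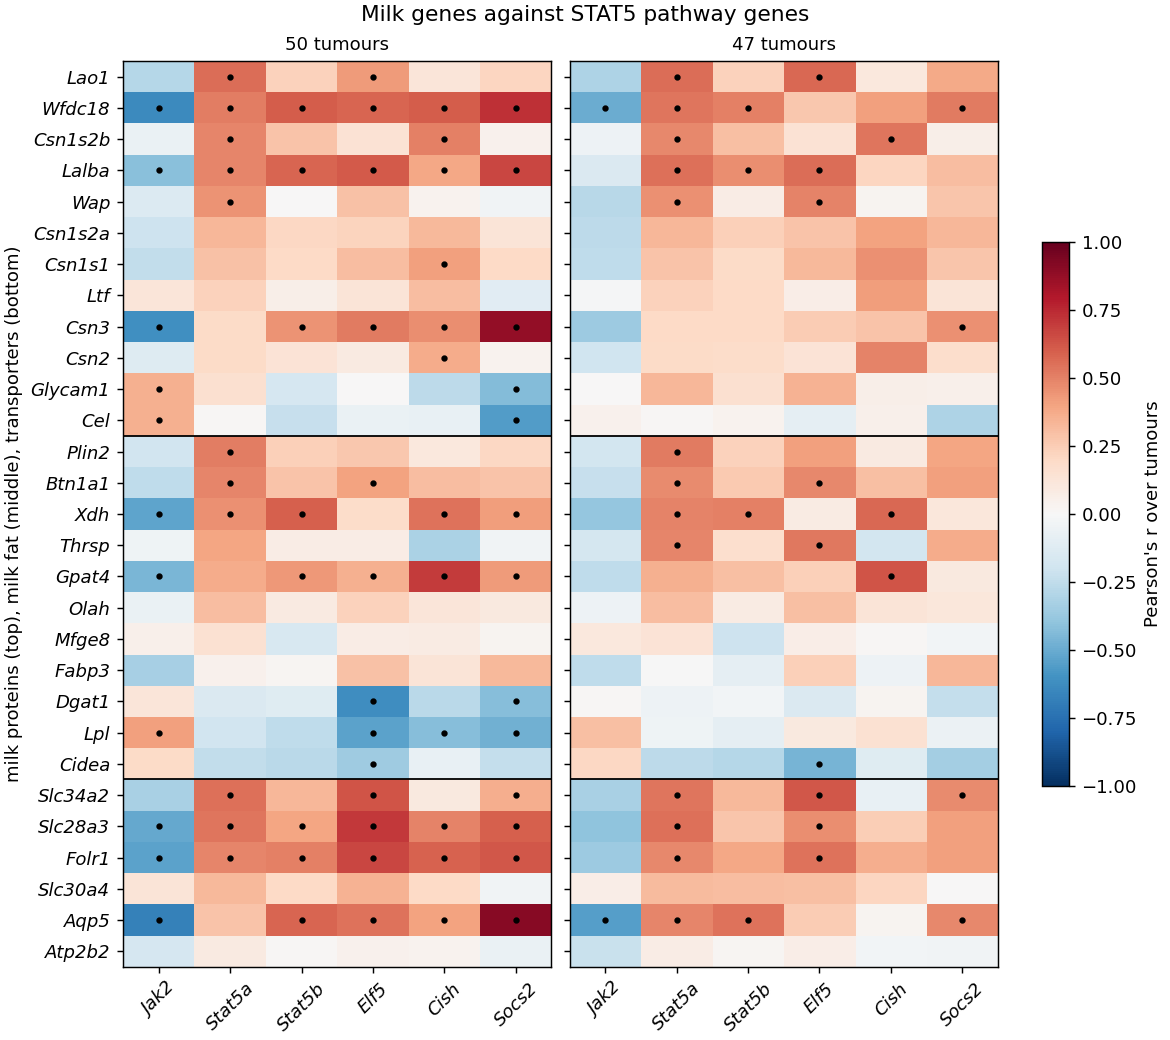
Pearson's r (colour) of each of 29 milk genes (rows, grouped as proteins, fat and transporters) with each of 6 pathway genes (columns), over 50 tumours on the left and over 47 on the right, with dots where limma called the gene. The Stat5a column holds 11 dots over 50 tumours and 13 over 47, and the Cish column 12 and 3.

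Stat5b was called with fewer milk genes than Stat5a, and the difference between the 2 counts was not tested. With Stat5b 8 of 29 milk genes were called higher and 0 lower over 50 tumours (11 and 0 unadjusted), against 8.2% and 6.83% of all genes. Over 47 tumours 4 were higher and 0 lower, against 2.43% and 1.91%. The 4 were Aqp5 (r = 0.546 over 47 tumours), Xdh (0.507), Wfdc18 (0.505) and Lalba (0.464), each also called with Stat5a over the same tumours. Without mid60 alone 5 were called, each higher, against 4.22% of all genes called higher.

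With Elf5, 10 of 29 milk genes were called higher and 3 lower over 50 tumours, against 10.3% and 9.97% of all genes, and 8 higher and 1 lower over 47, against 1.59% and 1.58%. The genes that held over 47 tumours were Slc34a2 (r = 0.623), Lao1 (0.574), Lalba (0.558), Folr1 (0.543) and, with smaller r, Btn1a1 (0.478) and Slc28a3 (0.467). Wap (0.494) and Thrsp (0.528) were called over 47 only. Without mid79 alone 7 were higher and 1 lower, against 1.57% and 1.05% of all genes. Cidea, a lipid droplet protein of brown fat and mammary epithelium, fell with Elf5 in both sets (r = -0.357 over 50 tumours, -0.466 over 47).

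The fat enzymes Lpl and Dgat1 were called lower with Elf5 over 50 tumours (r = -0.537 and -0.620), but rho was 0.0149 for Lpl and -0.0861 for Dgat1. Over 47 tumours Lpl gave 0.101 and Dgat1 -0.147, and neither was called. Both genes were highest in mid79, at 12.06 for Lpl and 9.0 for Dgat1, the tumour with the highest adipocyte markers and the lowest Elf5.

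With Cish, 11 milk genes were called higher and 1 lower over 50 tumours, against 10.7% and 9.74% of all genes, and 3 higher and 0 lower over 47 (11 and 0 unadjusted), against 0.36% and 0.105%. The 3 were Gpat4, which starts glycerolipid synthesis, Xdh and Csn1s2b. Gpat4 gave r = 0.702 and rho = 0.681 with Cish (each permutation p = 1e-05), r = 0.651 without mid79 and mid100 and r = 0.625 over 47 tumours, with a slope of 0.28 ± 0.04 log2 per SD (adjusted p = 9.14e-06, and 0.00585 over 47). By rho with Cish it had rank 3 among all genes. Without mid79 alone 6 milk genes were called with Cish, each higher, against 3.08% of all genes called higher. Csn1s1 and Csn2 were called with Cish over 50 tumours (r = 0.413 and 0.369) and, although r was 0.458 and 0.493 over 47, not there (adjusted p = 0.0872 and 0.0523).

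With Socs2, 9 milk genes were called higher and 4 lower over 50 tumours, against 13.6% and 14.2% of all genes, and 4 higher and 0 lower over 47 (14 and 2 unadjusted), against 1.87% and 2.05%. Aqp5 gave r = 0.914 and Csn3 r = 0.877 with Socs2 over 50 tumours, and rho was 0.537 and 0.631. Aqp5 was at 7.31 in mid60 and 8.95 in mid79 against a median of 12.11, and Csn3 at 10.64 and 11.43 against 12.75, so these r values rest on the same tumours in which Socs2 was lowest. Over 47 tumours both were still called, with r = 0.480 for Aqp5 and 0.457 for Csn3, beside Wfdc18 (0.522) and Slc34a2 (0.471).

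With Jak2, 3 milk genes were called higher and 8 lower over 50 tumours, against 11.4% and 9.45% of all genes, and over 47 tumours 0 higher and 2 lower (1 and 8 unadjusted), against 2.98% and 1.05%. The 2 were Aqp5 (r = -0.547 over 47 tumours, adjusted p = 0.0109) and Wfdc18 (-0.493, adjusted p = 0.0195).

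**Figure D4:**
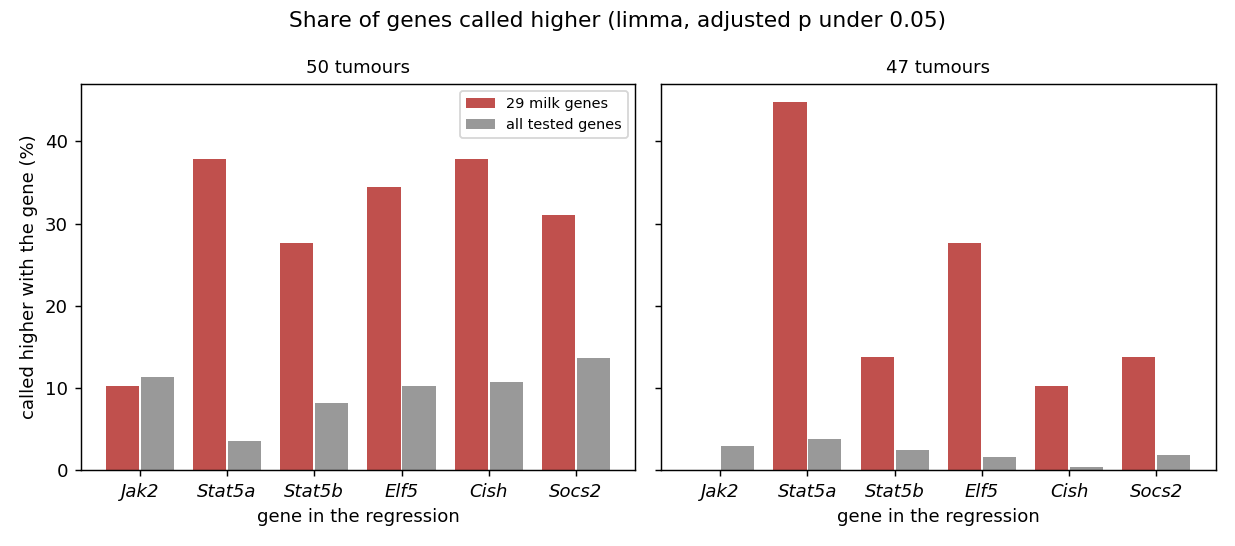
Bars give the share of genes (y axis, percent) called higher by limma with each of 6 pathway genes, for the 29 milk genes beside all tested genes, over 50 tumours on the left and over 47 on the right. With Stat5a the milk bar is at 37.9% over 50 tumours and 44.8% over 47, beside 3.59% and 3.78% for all genes.

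The other genes of the pathway were read from a list of 72, of which 64 were tested, by role. Prl itself had a mean of 3.67 log2, under the filter, and was not tested. With Stat5a, 4 of the 64 were called higher and 3 lower over 50 tumours, against 3.59% and 2.04% of all genes, so 6.25% of the list was higher. Over 47 tumours 5 were higher and 4 lower, against 3.78% and 2.64%. Over 47 tumours Stat5b was called with 4 of the 64 higher (6.25%) and 4 lower, against 2.43% and 1.91% of all genes. Elf5 was called with 2 higher (3.12%) and 1 lower, against 1.59% and 1.58%, and Socs2 with 3 higher (4.69%) and 1 lower, against 1.87% and 2.05%. Jak2 was called with 2 higher (3.12%) and 1 lower, where 2.98% and 1.05% of all genes were called, so its higher share was near the background. Cish was called with 0 higher and 0 lower (2 and 2 unadjusted by limma), against 0.36% and 0.105%.

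Of 15 transcription partners and adaptors, Gata3, the GATA factor of luminal cells, was called with most members. Gata3 lay at 6.59 in mid79, 8.46 in mid111, a median of 9.35 and 10.04 in mid37. With Stat5a it was 0.31 ± 0.06 log2 (SE) higher per SD (adjusted p = 0.00125), with r = 0.595 over 50 tumours and 0.710 over 47. With Elf5 it was 0.43 ± 0.04 log2 higher per SD (adjusted p = 8.22e-11), with r = 0.833 over 50 tumours and 0.608 over 47. Over 47 tumours it was also called with Stat5b (r = 0.577) and Socs2 (0.530), but not with Cish (0.148) or Jak2 (-0.372).

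With Stat5a, Nfib, a nuclear factor I protein that works at milk gene promoters, also rose (r = 0.517, adjusted p = 0.00727), as did Erbb4, the receptor that acts upstream of STAT5A in the gland (r = 0.484, adjusted p = 0.0130). Sh2b2, a JAK-binding adaptor, fell with Stat5a (r = -0.515, adjusted p = 0.00857). All 3 kept their call over 47 tumours.

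Of 16 inhibitors, Cav1, the caveolar protein that restrains JAK2 in mouse mammary cells, was called lower with Stat5a (r = -0.483 over 50 tumours, -0.534 over 47), Stat5b (-0.473 and -0.476), Elf5 (-0.726 and -0.455) and Socs2 (-0.582 and -0.468). Without mid79 alone the r of Cav1 with Elf5 was -0.432 and the gene was not called (adjusted p = 0.0513), nor was it without the 2 tumours farthest in Elf5 (r = -0.375, adjusted p = 0.15) or on ranks (adjusted p = 0.0576). It was higher with Jak2 (0.531 and 0.506). Cav1 was at 5.29 in mid87, at a median of 6.25 and at 10.32 in mid79, and endothelial cells and adipocytes express it too. With Cish it was called over 50 tumours (-0.568) and not over 47 (-0.189).

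Of 10 tested ligands and receptors, Ghr, the growth hormone receptor, was the only one called with Stat5a, at r = -0.453 over 50 tumours and -0.484 over 47. Of 6 kinases and STATs, Jak1, a JAK of interferon and interleukin receptors, was the only one, at r = 0.529 (adjusted p = 0.00562) and 0.605. Of 15 STAT5 targets outside milk, 0 were called with Stat5a over 50 tumours (2 lower unadjusted by limma), and over 47 tumours Pim1, a survival kinase, was called lower (r = -0.437). Neither Esr1 nor Pgr, the receptors of estrogen and progesterone, was called with Stat5a (r = 0.0682 and -0.0945, 0 unadjusted by limma).

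With Elf5, Cish, Socs2 and Jak2 most calls of the pathway list rested on the arrays that stood apart. Socs2 was called with 9 higher and 17 lower over 50 tumours, against 13.6% and 14.2% of all genes. Jak2 was called with 10 higher and 6 lower, against 11.4% and 9.45%. With Stat5b 7 were higher and 8 lower, against 8.2% and 6.83%. Elf5 was called with 11 of the 64 higher (17.2%) and 12 lower over 50 tumours, against 10.3% and 9.97% of all genes. Lep, the fat cell hormone leptin, for example, gave r = -0.740 with Elf5 over 50 tumours and 0.149 over 47, and it was at 11.57 in mid79 against a median of 4.90. Cish was called with 7 of the 64 higher (10.9%) and 9 lower, against 10.7% and 9.74% of all genes, so the share called higher was near that of all genes. Its closest target gene, Irs1, an insulin receptor substrate, gave r = 0.583 (adjusted p = 0.000267) over 50 tumours and 0.484 (adjusted p = 0.0660) over 47, and its closest inhibitor, Ptpn2, a JAK-STAT phosphatase, 0.596 and 0.436 (adjusted p = 0.121).

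By rank correlation over 50 tumours, the 5 genes most like Stat5a were Stat5b (rho = 0.757), Esrp1, a splicing regulator of epithelia (0.743), Cdh19, a cadherin (0.730), Gata3 (0.726) and St3gal5, which makes the ganglioside GM3 (0.722). The 3 most opposed were Ust, a sulfotransferase (-0.707), Stk10 (-0.677) and Fyn, a Src-family kinase (-0.675). Over 47 tumours rho lay between 0.705 and 0.769 for the 5 and between -0.665 and -0.704 for the 3.

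The genes most like Stat5b were Tmbim6, a membrane protein of the endoplasmic reticulum (0.769), Stat5a, Mospd2 (0.751), Cracr2b (0.732) and Hid1 (0.719), and the most opposed were Anxa3, an annexin (-0.702), Slc16a1, a lactate carrier (-0.689) and Klf7 (-0.688). Those most like Jak2 were Il6st, the gp130 receptor subunit that signals through JAKs (0.706), Vamp5 (0.705), Dock10 (0.679), Rasa3 (0.678) and Gnptab (0.675). Tmem242 (-0.656), Rnf5 (-0.654) and Ssr2, of the translocon (-0.638), were the most opposed.

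The genes most like Elf5 were 4930412O13Rik (0.743), Tmem132a (0.687), Ptpn18 (0.667), Arg2, an arginase (0.644), and B4galnt1 (0.638), and the most opposed Ndrg2 (-0.633), Arrb1 (-0.599) and Ywhag (-0.593). Those most like Cish were Atp13a4 (0.753), Retreg1, a receptor of endoplasmic reticulum autophagy (0.683), Gpat4 (0.681), Kcnk1 (0.670) and Nbea (0.668), with Nxn (-0.639), Clic4 (-0.611) and Homer1 (-0.608) most opposed. Those most like Socs2 were Pdxk, pyridoxal kinase (0.701), Urm1 (0.692), Stard10 (0.690), Dpm3 (0.689) and Fkbp2 (0.687), with Sec24b (-0.696), Il34, a ligand of the macrophage receptor CSF1R (-0.682), and Pdlim7 (-0.666) most opposed.

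The members were last set beside Erbb2, the oncogene of the model, and beside scores of cell markers, where a score is the mean of standardised marker levels. Erbb2 was called with 4 members higher and 1 lower over 50 tumours, against 16.6% and 14.7% of all genes. The largest was Socs2 (r = 0.862), but rho was 0.139 and r 0.0286 without mid60 and mid79. Over 47 tumours 0 members were called with Erbb2 (1 higher unadjusted by limma), against 0.0554% and 0.105% of all genes, and Cish had the largest r, 0.406 (adjusted p = 0.145).

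Jak2 rose with the scores of other cell types. With the basal score it gave r = 0.688 (permutation p = 1e-05), rho = 0.443 (p = 0.0016), r = 0.556 without mid60 and mid100 and 0.510 over 47 tumours. With the fibroblast score it gave r = 0.583 and rho = 0.535, and 0.489 over 47. The endothelial score gave 0.504 and 0.426, and the macrophage score 0.551 and 0.451, and each of the 4 was called in both sets of tumours.

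Over 47 tumours Jak2 was higher with 9 of 11 fibroblast markers, 3 of 9 macrophage markers, 2 of 8 endothelial markers and 1 of 7 basal markers (Acta2), against 2.98% of all genes. With cell type covariates in the fit, the genes called with Jak2 numbered 21 against 3755 without them. With the same covariates 1 milk gene, Aqp5, was called with Jak2, against 11 without them.

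Stat5a was called with none of the 9 (0 in both sets), with r between -0.300 for the fibroblast score and 0.238 for the luminal score over 50 tumours. Stat5b fell with the basal score in both sets (r = -0.563 and -0.426, adjusted p = 0.000232 and 0.0390). Cish, Elf5 and Socs2 fell with the adipocyte and endothelial scores over 50 tumours, with r between -0.510 and -0.727, and none of these was called over 47.

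Over all genes the shares called over 50 tumours were 12.6% higher and 9.65% lower with the luminal score, 13.7% and 15.6% with the basal score, 11.8% and 14.1% with the fibroblast score and 14.4% and 20.3% with the endothelial score. They were 13% and 16.6% with the adipocyte score, 11.9% and 15.9% with the macrophage score, 11.8% and 13.8% with the T and NK cell score and 10.2% and 7.61% with the proliferation score. Over 47 tumours they were 4.42% and 2.18% with the basal score, 6.71% and 2.21% with the fibroblast score, 6.46% and 2.59% with the endothelial score and 7.18% and 4.15% with the macrophage score. With the luminal, adipocyte, T and NK cell and proliferation scores 0 members were called over 47 tumours (1 higher with the luminal score unadjusted, 0 with the others by limma), where the shares were 1.91% and 1.28%, 0.964% and 0.0942%, 1.57% and 0.349%, and 3.72% and 1.59%.

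**Figure D5:**
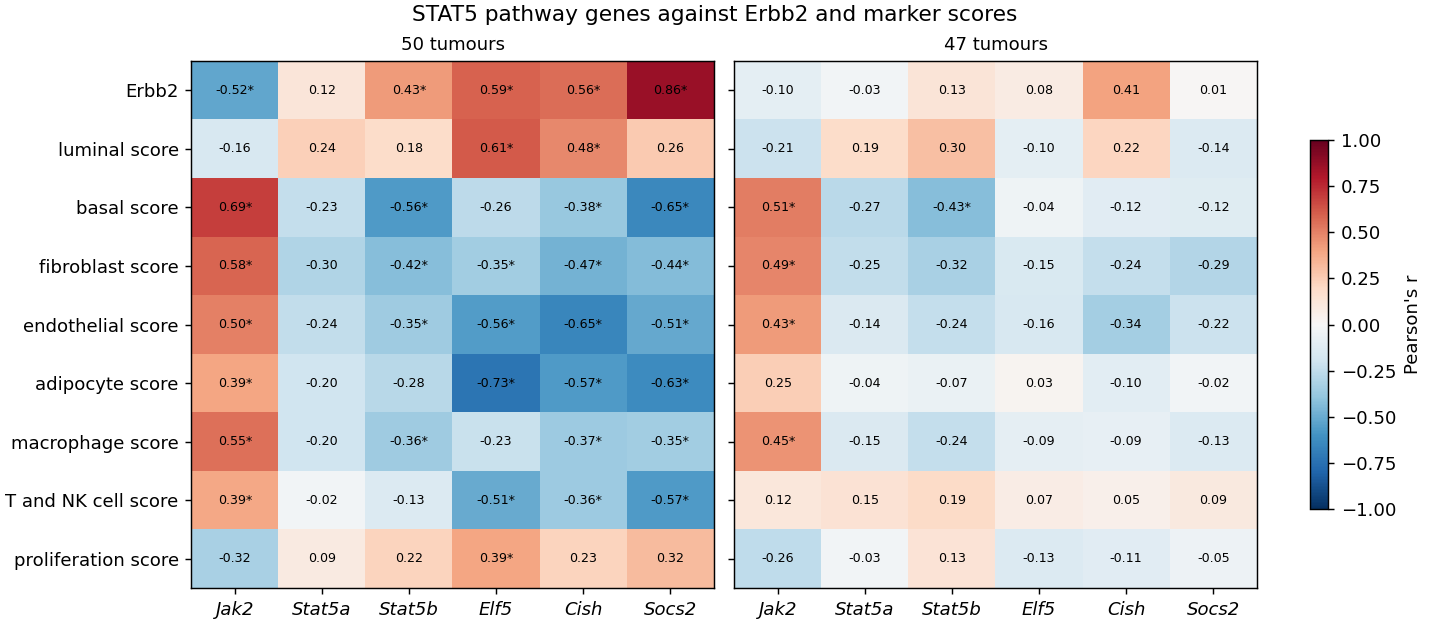
Pearson's r (colour and number) of the 6 pathway genes (columns) with Erbb2 and 8 marker scores (rows), over 50 tumours on the left and 47 on the right, with an asterisk where limma called the relation. Socs2 with Erbb2 is at 0.86 over 50 tumours and 0.01 over 47, while Jak2 with the basal score is at 0.69 and 0.51.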

How the data were processed

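Total RNA (6 ug a tumour, per the labels' protocols) from 50 tumours was hybridised to 1 Affymetrix array each, and the authors deposited log2 values after RMA, which the submitters' processing notes name without a version. The notes also name the build mm8 with no role. RMA usually forces arrays to a like distribution, so values of 1 array are not independent of its other genes.

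Of 34472 probe sets, 23521 were annotated to 1 gene, 1814 to several and 9137 to none, and 23328 of the first matched RefSeq by Entrez identifier. The probe set with the highest mean stood for each of 22180 genes, and 18045 genes with a mean of at least 4.09 log2 (the 25th percentile) were tested. Prlr was not analysed. Members and gene lists were chosen with earlier results of these data known. All tumours form 1 group, and separate tumours are the replicates. No 2 arrays were identical (highest correlation 0.992), and the number of arrays limits the precision.

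Each tested gene was regressed on each member's standardised level, on Erbb2 and on marker scores with limma 3.58.1 (lmFit, eBayes with trend) in R 4.3.3, with Benjamini-Hochberg adjustment over all tested genes and a threshold of 0.05. The predictor itself was left out of its own fit. The printed permutation p-values are two-sided and unadjusted, from 100000 permutations (scipy 1.17.1), for Pearson's r and Spearman's rho, and the family held 243 relations: 15 between members, 174 of members with milk genes and 54 with Erbb2 and marker scores. The adjusted p beside each is limma's. Each r was also computed after dropping the pair of tumours whose predictor level lay farthest from its median. On simulated data with 18045 genes the fit recovered 81% of 100 genes planted at a slope of 0.2 and 98% of 100 planted at 0.5, with 11 false calls. The simulated noise was normal and independent between genes, and no array stood apart. The run therefore checks the fit and does not give the error rate in these data.

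Named were all members, the tested milk genes, per pathway list the strongest genes with Stat5a, Elf5 or Cish, and per member the 5 genes with the highest and the 3 with the lowest rho. Values of Gata3 and Cav1 with the other members, and of Lep, were added after they were seen. Promoter windows of 250 bases came from RefSeq (GRCm38.p6). Alternatives were other filters, the mean of a gene's probe sets, ranks, array weights, cell type covariates and tumours left out.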

Additional observations from a re-analysis of the deposited data

How the results depend on the processing

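The counts of genes called moved by over 1.5 times with the tumours used, ranks, array weights and covariates for every member but Stat5a, whose count moved so only with covariates. The genes called with Jak2 numbered 3755, and 727 without mid60, mid79 and mid100, 2109 without the 2 farthest tumours, 1584 on ranks, 1225 with array weights, 21 with cell type covariates and 2250 without mid60. The genes called with Stat5a numbered 1015, and 568 with covariates. The genes called with Stat5b numbered 2713, and in the same order as for Jak2 784, 1542, 1528, 1220, 916 and, without mid60, 1288. The genes called with Elf5 numbered 3658, and 572, 196, 517, 704, 1228 and, without mid79, 474. The genes called with Cish numbered 3693, and 84, 189, 787, 449, 54 and, without mid79, 1123. The genes called with Socs2 numbered 5015, and 707, 639, 1271, 537, 1966 and, without mid79, 2869. Of the 15 pairs of members 10 were called, and 4 over 47 tumours, without the 2 farthest tumours, on ranks, with weights and with covariates, and 5 without mid79. The calls between members and milk genes numbered 68, and 35 over 47 tumours, without the 2 farthest tumours and with covariates, and 44 with weights.

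By member, the milk genes called with Stat5a stayed within 1.5 times of 11 under every alternative run. With Jak2 the 11 became 2 over 47 tumours, 7 without the 2 farthest, 6 with weights and 1 with covariates. With Stat5b the 8 became 4 over 47 tumours, and 5 with weights, with covariates and without mid60. With Elf5 the 13 became 3 without the 2 farthest, 6 on ranks and 8 without mid79. With Cish the 12 became 3 over 47 tumours and without the 2 farthest, 5 on ranks, 4 with weights, 2 with covariates and 6 without mid79. With Socs2 the 13 became 4 over 47 tumours and without the 2 farthest, 6 with weights and 7 with covariates. Members called with Erbb2 numbered 5, and 0 over 47 tumours and 1 on ranks. Over 47 tumours and on ranks the luminal count of 2 became 0 and 0, the basal 4 became 2 and 2, the endothelial 5 became 1 and 2, the adipocyte 4 became 0 and 1, the macrophage 4 became 1 and 1, the T and NK cell 4 became 0 and 0, and the proliferation 1 became 0 and 0. The fibroblast 5 became 1 over 47 tumours.

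Of 162 single relations, 92 kept their direction and their state, called or not called, over 47 tumours, 62 lost only their call and 8 reversed. The 162 held all 15 pairs of members, and the pairs not called over 50 tumours counted as kept where they stayed uncalled. The mean of probe sets kept 159, the run without mid99 162, without mid100 158, without mid60 145, without mid79 112, ranks 106, array weights 103, without the 2 farthest 95 and covariates 83. These r reversed over 47 tumours: Il5ra with Cish 0.148, Lep with Cish 0.00358, Lpl with Cish 0.149, Lep with Elf5 0.149, Lpl with Elf5 0.101, Pias2 with Elf5 -0.00823, Stat4 with Elf5 0.0851 and Glycam1 with Socs2 0.0533. With covariates they were Cav1 with Cish 0.00271, Igf1 with Cish 0.124, Lpl with Cish 0.432, Igf1 with Elf5 0.12, Lpl with Elf5 0.285, Lpl with Jak2 -0.148 and Lpl with Socs2 0.309. Without the 2 farthest tumours they were Lpl with Cish 0.117, Dgat1 with Elf5 0.0249 and Cel with Jak2 -0.0382, and on ranks Il5ra with Cish 0.0119. Without mid79 they were Lep with Elf5 0.023, Lpl with Elf5 0.0171 and Dgat1 with Socs2 0.00481. The cause was not tested.

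Runs with no filter and with the 50th percentile filter (5.27 log2) moved none of the counts of genes called by over 1.5 times. Runs without mid60, mid79, mid100 or mid99 alone were chosen after seeing the data. The alternatives for genes called with Prlr were not run, because Prlr has no probe set of its own here. No paired analysis was possible because all 50 tumours form 1 group. The number of tumours and the signal of dim genes limit the calls.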
